A study of Mus musculus with 141 samples.

Results

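The large histone gene cluster of mouse chromosome 13 was examined for CpG methylation in single glioma cells, from position 21715000 to 23763000 of the mouse build mm10. All 1086 cytosine positions that the methylation table holds in this interval were taken, of 1416034 in the whole table. Merging the strands left 1036 CpGs with 7769 methylated or unmethylated calls. The interval holds 51 protein-coding histone genes and 193 other annotated genes. Positions were divided into 371 within 500 bp of a histone gene, 444 within 500 bp of another gene but of no histone gene, and 271 farther from any gene. Positions were taken by location alone, though earlier results of these data were known when the interval was chosen.

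The cells are mouse glioma cells with the Idh R132H mutation, whose enzyme product 2-hydroxyglutarate inhibits the TET enzymes that oxidise 5-methylcytosine. They had grown for over 2 weeks with AG-881 (vorasidenib, an inhibitor of mutant IDH) at 1 µM, or with the vehicle DMSO alone. Both arms carry the mutation, and no arm without it was compared here. Live single cells, sorted by calcein AM and TO-PRO-3 staining, were profiled by a joint protocol of reduced representation bisulfite sequencing after MspI digestion and Smart-seq2. There were 67 cells with AG-881 (library pools 1 to 4) and 74 with DMSO (pools 5 to 8). The labels name 1 plate and no separate cultures for each arm. Each arm was therefore treated as 1 sample, no p-value is given, and differences between arms have no replicate check. Each interval given is the exact 95% interval of a binomial share (Clopper-Pearson), and it covers counting error alone. Cells had calls at a median of 89440 CpGs with AG-881 (range 23895 to 190259) and 67749 with DMSO (range 10438 to 165853).

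Replication-dependent histone genes are short, have no introns, and are transcribed mainly in S phase, when new chromatin needs core histones H2A, H2B, H3 and H4 and linker histone H1. The transcriptional coactivator NPAT gathers at these clusters in histone locus bodies, and the transcripts end in a stem-loop bound by SLBP in place of a poly(A) tail. A few genes of the cluster encode variants made in the testis, among them H1f6 (a linker histone of spermatocytes) and, outside the interval, H2ac1 and H2bc1. The cluster is divided by a stretch of vomeronasal receptor genes and is surrounded by many tRNA genes.

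The promoters of H4c1, H1f2, H1f6 and H2bc1 are shown because they hold called CpGs at opposite levels. Each runs from 250 bases before to 50 after the gene's start, 5′ to 3′ along the gene, from RefSeq (GRCm38.p6). Capitals mark the CpGs with at least 1 call.
H4c1, chr13:23761200-23761499, minus strand: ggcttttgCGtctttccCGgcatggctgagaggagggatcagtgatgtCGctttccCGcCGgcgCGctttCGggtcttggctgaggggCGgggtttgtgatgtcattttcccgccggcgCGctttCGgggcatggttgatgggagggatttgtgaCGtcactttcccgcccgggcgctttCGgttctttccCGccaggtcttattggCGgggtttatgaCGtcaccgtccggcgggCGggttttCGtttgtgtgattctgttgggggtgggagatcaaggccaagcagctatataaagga
H1f2, chr13:23738557-23738856, plus strand: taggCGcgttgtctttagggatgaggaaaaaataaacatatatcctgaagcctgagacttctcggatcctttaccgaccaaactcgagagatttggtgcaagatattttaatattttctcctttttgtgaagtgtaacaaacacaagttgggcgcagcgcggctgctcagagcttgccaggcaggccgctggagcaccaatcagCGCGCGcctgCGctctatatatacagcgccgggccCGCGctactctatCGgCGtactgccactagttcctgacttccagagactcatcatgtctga
H1f6, chr13:23695561-23695860, plus strand: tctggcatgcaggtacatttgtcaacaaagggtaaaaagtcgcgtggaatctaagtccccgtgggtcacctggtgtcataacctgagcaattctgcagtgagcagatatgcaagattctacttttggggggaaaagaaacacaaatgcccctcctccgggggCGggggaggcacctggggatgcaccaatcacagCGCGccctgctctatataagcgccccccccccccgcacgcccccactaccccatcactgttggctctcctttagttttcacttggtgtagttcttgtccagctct
H2bc1, chr13:23934107-23934406, minus strand: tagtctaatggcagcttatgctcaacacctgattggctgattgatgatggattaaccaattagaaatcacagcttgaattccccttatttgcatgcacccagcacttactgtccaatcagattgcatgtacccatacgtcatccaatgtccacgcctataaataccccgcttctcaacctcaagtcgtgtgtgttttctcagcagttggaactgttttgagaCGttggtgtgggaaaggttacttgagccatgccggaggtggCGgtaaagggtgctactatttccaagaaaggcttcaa
In the H4c1 promoter, a core histone H4 gene, 17 of 27 CpGs had calls, and 0 of 266 calls in 69 cells were methylated, which allows a level of up to 1.13% (3 calls of the total). In the H1f2 promoter 0 of 82 calls in 21 cells were methylated, at 9 of 19 CpGs. The H1f6 promoter had 3 calls, all from 1 cell with AG-881, and all 3 were methylated. The H2bc1 promoter, which lies outside the interval, had 11 calls in 11 cells, 8 with AG-881 and 3 with DMSO, and all 11 were methylated.

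Histone genes were almost free of CpG methylation in both arms. Within 500 bp of a histone gene, 11 of 2658 calls were methylated, or 0.414% (interval 0.207 to 0.739). AG-881 cells had 8 methylated calls of 1457 (0.549%, interval 0.237 to 1.08) and DMSO cells 3 of 1201 (0.250%, interval 0.0515 to 0.728). These values take 5 H2B genes that are annotated over more than 1000 bp (H2bc22, H2bc23, H4bc24, whose older name places it with H2B, H2bc6 and H2bc4) as 500 bp from each listed start, a choice made after the data were seen. H2bc4 has no listed start, so it is left out of every value with shortened annotations. Its CpGs near another histone gene still count for that gene. With the whole annotated spans of the 5 genes the level was 2.26% with AG-881 and 2.77% with DMSO. The added spans were methylated at 26 of 49 calls with AG-881 and 32 of 62 with DMSO, at 28 CpGs. The span of H2bc6 alone is 37455 bp long, and it had 46.2% (52 calls) and 43.5% (69 calls).

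With these shortened annotations, each histone class was at or near 0. The 5 linker histone H1 genes had 4 methylated calls of 590 with AG-881 and 3 of 460 with DMSO. The 12 H2A genes had 0 of 131 and 0 of 106, limits of 2.29% and 2.83%. The H2B genes without H2bc4 had 1 of 241 and 0 of 287. Over their whole annotated spans all 14 H2B genes had 27 of 297 (9.09%) and 32 of 349 (9.17%). The 9 H3 genes had 2 of 248 and 0 of 143. The 11 H4 genes had 2 of 466 and 0 of 347. A call close to genes of different classes counts in each of them. Both blocks of histone genes were low. The 23 genes between positions 21715711 and 22043658 had 1 of 328 and 2 of 363. The 28 genes between 23531044 and 23762386, with H2bc4 again left out, had 7 of 1129 and 1 of 838.

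**Figure D1:**
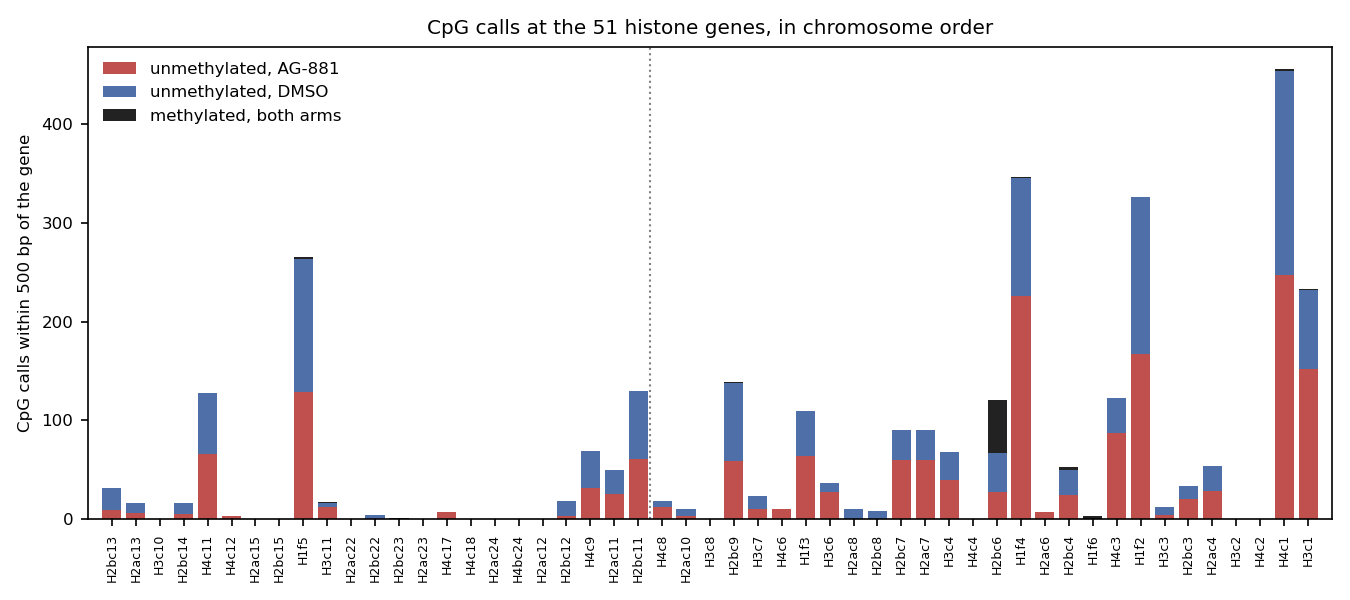
CpG calls (y axis) within 500 bp of each of the 51 annotated histone genes (x axis, in chromosome order; the dotted line marks the gap of 1487386 bp). Coloured bars stack unmethylated calls with AG-881 (red) and DMSO (blue) and methylated calls of both arms (black); black is visible mainly at H2bc6, whose annotation is 37455 bp long, and calls are concentrated in a few genes such as H4c1 and H1f4.

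Coverage was uneven. Over whole annotated spans, 38 of the 51 genes had any call, 29 of them in both arms. In 27 of these 38 genes no call was methylated, with the long H2B spans counted whole. The 13 genes without calls include 5 H2A genes (H2ac12, H2ac15, H2ac22, H2ac23 and H2ac24), H3c2, H3c8, H3c10, H4c2, H4c4 and H4c18. Each linker gene used in somatic cells had calls. H1f2 had 0 methylated of 167 calls with AG-881 and 0 of 159 with DMSO. H1f3 had 0 of 64 and 1 of 46, H1f4 1 of 227 and 0 of 119, and H1f5 0 of 129 and 2 of 136. Of the core histone genes H4c1 had the most calls, 2 methylated of 249 and 0 of 206. It was followed by H3c1, an H3 gene 636 bp away, with 1 of 153 and 0 of 80, and their windows overlap. H4c11 (0 of 66 and 0 of 62) and H2bc11 (0 of 61 and 0 of 69) lie in the other block of the cluster. H2bc7 and H2ac7, a divergently transcribed H2B and H2A pair, share all their calls, 0 of 60 and 0 of 30. Near-identical histone genes can exchange reads in mapping, and the sources do not say how the authors treated them.

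With the long H2B annotations shortened, the 11 methylated calls were scattered over 11 CpGs and 9 cells. Of the 116 CpGs near histone genes with at least 10 calls over both arms, 111 had no methylated call and 5 had 1 each. No CpG of this depth reached 20%. H1f5 had 2 of the methylated calls, each from a different DMSO cell, at CpGs with 20 and 22 calls. The 3 methylated calls of H1f6 lay 53, 55 and 88 bp upstream of it and came from 1 cell of pool 1. That cell was the only one with calls there, so methylation at H1f6 rests on 1 cell. Of the cells with at least 5 calls near histone genes, 55 of 61 with AG-881 and 58 of 61 with DMSO had no methylated call.

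The arms did not differ detectably at the histone genes. Arms were compared at shared CpGs, those with calls from 5 or more cells in AG-881 and also in DMSO, and 96 of these lie near histone genes. With the whole annotated spans, 11 of 1012 calls were methylated in AG-881 cells (1.09%) and 13 of 800 in DMSO cells (1.62%). Most of these methylated calls came from 1 CpG in the long span of H2bc6. It was methylated in 9 of 10 calls with AG-881 and 11 of 11 with DMSO. With this CpG included, the arm difference of -0.538 points had an interval of -1.80 to 0.600. With the long H2B annotations shortened and H2bc4 left out, 2 of 1002 calls (0.200%) and 2 of 789 (0.253%) were methylated. Of the 51 genes, 5 had at least 50 calls and 10 cells in each arm at these CpGs, and H2A and H2B had none. H1f5 had 0 of 120 calls methylated with AG-881 and 2 of 124 with DMSO. H1f4 had 1 of 203 and 0 of 108. H1f2 (0 of 149 and 0 of 110), H4c1 (0 of 212 and 0 of 182) and H3c1 (0 of 108 and 0 of 55) had no methylated call in either arm. A gene was counted as lower or higher with a difference of at least 5 points and an interval that excluded 0. Of the 5 genes, 0 were lower and 0 higher. Among 516 protein-coding genes of up to 3 kb measured outside the interval, 6.4% were lower and 2.52% were higher with AG-881. With levels near 0 in DMSO a decrease of 5 points could not occur at these 5 genes.

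Sequence between the genes was methylated in most calls. More than 500 bp from every annotated gene, AG-881 cells had 435 methylated calls of 703 (61.9%, interval 58.2 to 65.5) and DMSO cells 389 of 640 (60.8%, interval 56.9 to 64.6), at 269 CpGs. In the comparison at shared CpGs the level between the genes in DMSO exceeded that at histone genes by 55 points (interval 49.1 to 60.7). The contrast was present in each pool. At the same CpGs and with whole spans, pools lay between 0 and 2.78% near histone genes and between 52.3% and 67.1% between the genes. At all CpGs and with shortened annotations these ranges were 0 to 1.14% and 58.1% to 66.7%. In neither case do the ranges overlap. Single cells with at least 5 calls between the genes had a median of 62.1% with AG-881 (range 25 to 90.9, 55 cells) and 57.1% with DMSO (range 28.6 to 92.9, 49 cells). Of 40 CpGs between the genes with at least 10 calls, 18 were at 80% or more, 13 between 20% and 80%, and 9 below 20%. At shared CpGs the arms had 59.3% and 56.6%, a difference of 2.66 points (interval -5.39 to 10.7).

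**Figure D2:**
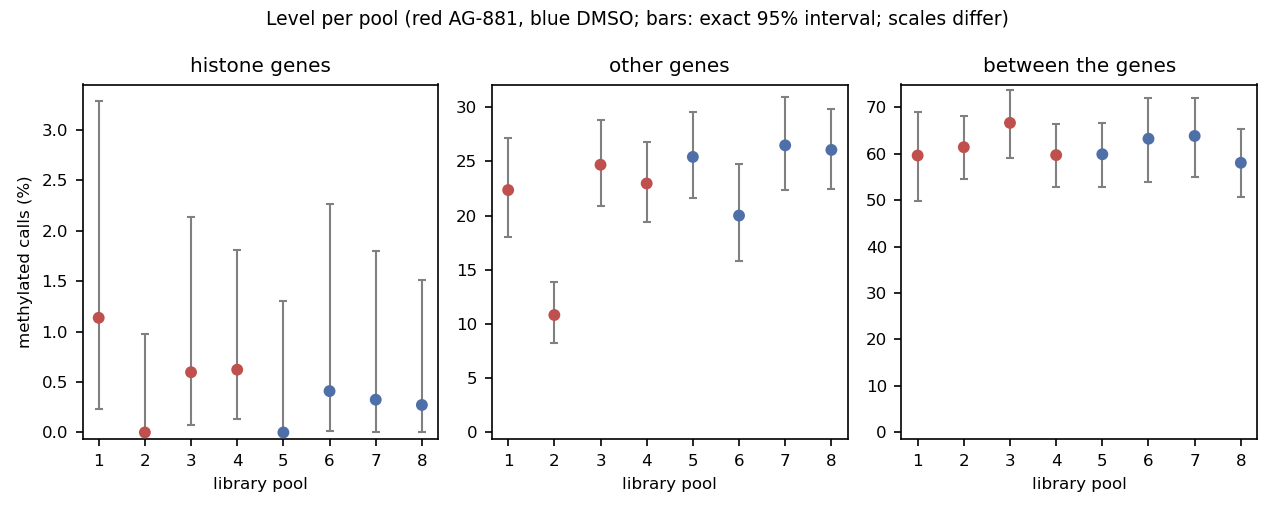
Methylated calls in percent (y axis, scales differ between panels) in each library pool (x axis; red, AG-881 pools 1 to 4; blue, DMSO pools 5 to 8) near histone genes (long H2B annotations shortened), near other genes and between the genes, at all CpGs, with exact 95% intervals. Pools stay at or below 1.14% near histone genes and at 58.1% or more between the genes, and pool 2 lies lowest near other genes.

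With long H2B annotations shortened, low levels extended to 500 bp from the histone genes, and on few calls to about 1000 bp. Inside a gene 0.278% of calls were methylated (5 of 1801), up to 250 bp away 0.722% (4 of 554) and from there to 500 bp 0.660% (2 of 303). From 500 to 1000 bp it was 1 of 45 calls, at 8 CpGs. From 1000 to 2000 bp, 6 of 11 calls were methylated, and from 2000 to 5000 bp 4 of 4. The last 2 steps hold 5 and 3 CpGs only. From 5000 to 20000 bp the level was 23.7% (604 calls), or 45.1% (142 calls) when CpGs near other genes were left out. Beyond 20000 bp it was 34.8%, or 63.4% away from other genes.

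**Figure D3:**
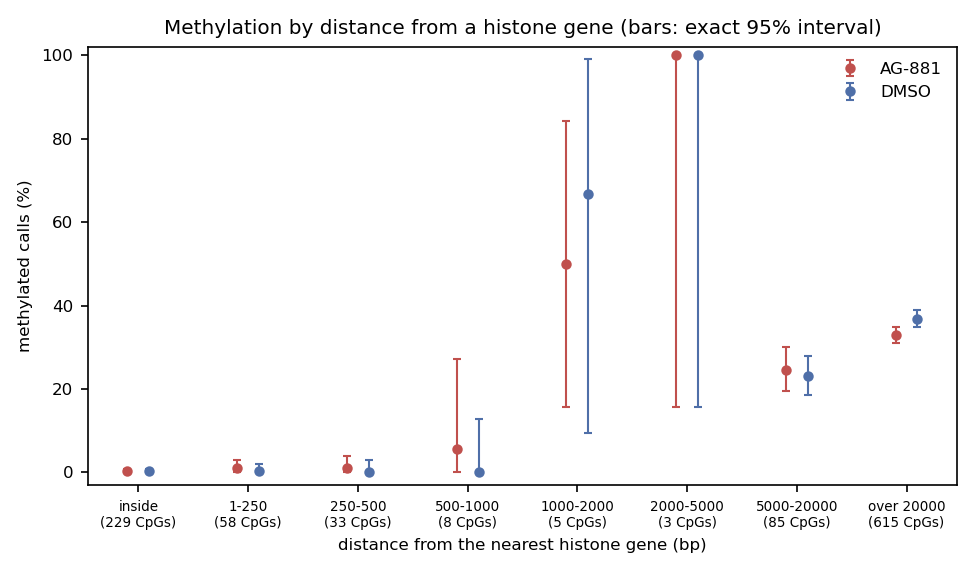
Methylated calls in percent (y axis) by distance in bp from the nearest histone gene (x axis, long H2B annotations shortened, with the number of CpGs) for AG-881 (red) and DMSO (blue), with exact 95% intervals. Levels are below 2% in the first 3 steps in both arms, and the steps from 1000 to 5000 bp hold few CpGs and have wide intervals.

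The histone genes were less methylated than other sequence with equal numbers of CpGs of the table nearby. Density was counted as the CpGs of the table within 100 bp either side, with the CpG itself. Its median was 6 near histone genes, 5 near other genes and 3 between the genes. CpGs absent from the table are not counted, so it can fall short of the density of the sequence. In the histone promoter windows, 59 of 484 CpGs had calls. Density in the sequence itself was not compared. On the rest of chromosomes 1 to 19 and X, CpGs weighted to the densities of the histone CpGs had 37.2% with AG-881 and 39.8% with DMSO, against 0.549% and 0.250% near histone genes with shortened annotations. For CpGs with 1 to 4 CpGs counted in this way, the rest of the chromosomes had 65.6% and 66%, and histone CpGs 4 of 359 calls and 2 of 350. Between the genes, levels (61.9% and 60.8%) lay near the weighted values of 59.9% and 60.9%. Low methylation of short genes was itself common. Of 516 measured protein-coding genes of up to 3 kb elsewhere, 66 (12.8%) had no methylated call and 183 (35.5%) were below 1%, with a median of 2.72%.

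**Figure D4:**
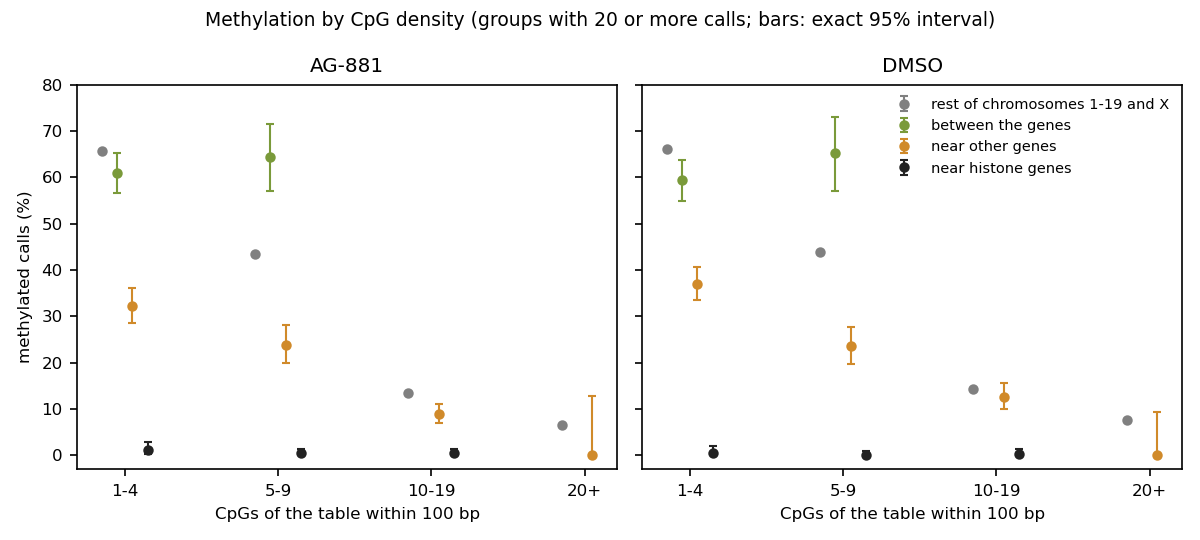
Methylated calls in percent (y axis) by the number of CpGs of the table within 100 bp (x axis) with AG-881 (left) and DMSO (right), with exact 95% intervals. At 1 to 4 CpGs the rest of the chromosomes is near 66%, sequence between the genes near 60%, and histone genes (black, long H2B annotations shortened) near 1% or below.

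Promoter sequence was found for 48 of the 51 histone genes, with H2bc6 listed at 2 starts, which gave 49 windows. The windows held a median of 11 CpGs, against 7 in all 32851 windows of the RefSeq table and 1 in the 33 vomeronasal receptor windows. The mean of the histone windows, 11.7, lay below the mean of 12.4 over all windows. Calls fell in 16 of the 49 windows, and in 15 of them none was methylated. In all, 3 of 594 promoter calls were methylated, the 3 of H1f6. Besides H4c1 and H1f2 above, H4c3 had 0 of 62 and H4c11 0 of 60. The motif CCGG, the site that MspI cuts and whose reverse complement is itself, occurred in 7 of 11 H4 and 4 of 5 H1 promoters. It occurred in none of the 12 H2A and 14 H2B promoters, which had 6 and 2 calls. Over all windows of the table, 52.8% held CCGG, and over histone windows 26.5%. Methylation within these H2A and H2B windows was thus hardly measured.

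Histone promoters shared other sequence features. On either strand, CCAAT occurred in 83.7% of histone windows and 37.4% of all windows, and in 3 of the 11 H4 windows. TATAAA occurred in 57.1% and 13.6%. The octamer ATTTGCAT, a binding motif of POU factors, occurred in 18.4% and 1.74%, in 4 of 12 H2A and 5 of 14 H2B windows and in no H1, H3 or H4 window. Divergent H2A and H2B pairs share part of their windows, so these matches are not independent. AAACACA, a motif known from H1 promoters, occurred in all 5 H1 windows, in 14.3% of histone windows and in 7.18% of all windows. No motif contains another, but neighbouring matches can share letters, and a match says nothing of binding.

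The testis histone genes beyond the interval, which do not adjoin it, were at the opposite end of the scale. H2bc1, a testis H2B gene (chr13:23933725-23934156), had 96 methylated of 97 calls with AG-881 (99.0%, lower limit 94.4%) and 46 of 48 with DMSO (95.8%, interval 85.7 to 99.5). H2ac1, its divergent testis H2A partner (chr13:23934437-23934913), had 94 of 100 (94.0%) and 54 of 59 (91.5%). Their windows overlap. H1f1, a somatic linker gene whose start lies 668 bp past the end of the interval (chr13:23763668-23764412), had 12 methylated calls of 59 with AG-881 (20.3%, interval 10.98 to 32.8) and 14 of 57 with DMSO (24.6%, interval 14.1 to 37.8). Its promoter window had 0 of 12. No linker gene inside the interval with calls in both arms came near the level of H1f1.

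Histone genes elsewhere were low as well. The 13 replication-dependent genes on chromosomes 3, 6 and 11 had 15 methylated of 894 calls with AG-881 (1.68%) and 22 of 785 with DMSO (2.80%). Of these calls, H2bu2 on chromosome 11 held 12 of 159 and 21 of 159. H2ac18, for example, had 0 of 104 and 0 of 74. The 11 replication-independent histone genes, whose use is not confined to S phase, had 2.96% and 3.11%. Among them H1f0, a linker histone of resting and differentiated cells, had 11.3% and 11.7%, and Macroh2a2 12.5% and 15.2%. H3f3a, which encodes H3.3, had 0.199% and 0.245%. The 14 genes of histone transcription and RNA processing had 0.916% and 0.997%, and both Npat and Slbp had no methylated call (0 of 156 and 0 of 162, 0 of 63 and 0 of 92). Lsm10, a subunit of the U7 particle that cuts histone transcripts, had 17 of 53 and 8 of 31.

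The other genes of the interval covered the whole range of methylation. At shared CpGs AG-881 cells had 172 methylated calls of 1196 (14.4%, interval 12.4 to 16.5) and DMSO cells 205 of 1066 (19.2%, interval 16.9 to 21.7). The difference was -4.85 points (interval -8.01 to -1.70), against -1.32 points over all shared CpGs of chromosomes 1 to 19 and X. The order of the pools did not follow the arms. Pool 2 had 5.15%, pools 1, 3 and 4 had 17.7%, 18.2% and 17.7%, and DMSO pools 5 to 8 had 14.9%, 14.7%, 26% and 20.3%. Without pool 2 the difference was -2.81 points (interval -6.64 to 1.04), and with each cell weighted equally it was -1.69 points. When every call was taken relative to the mean of all remaining cells at its CpG, the difference was -2.38 points for these genes, -0.150 for histone genes and -0.356 between the genes.

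Prss16, a serine protease gene of the thymus, had all 59 calls with AG-881 and all 56 with DMSO methylated at shared CpGs. Over all CpGs it had 79 of 100 (79.0%) and 79 of 117 (67.5%), a difference of 11.5 points (interval -1.02 to 23.4). Pom121l2, a gene related to a nuclear pore protein, had 82.8% (58 calls) and 84.8% (66 calls). Abt1, a nuclear protein gene, had 0 of 94 and 1 of 93, and the zinc finger gene Zfp322a 0 of 286 and 1 of 200. Gm46404 had 0 of 113 and 0 of 144. The tRNA gene n-TVcac9 lies next to it in an overlapping window and had 0 of 108 and 0 of 138. Btn1a1, a butyrophilin of milk fat, had 5.04% (119 calls) and 8.43% (83 calls). Gm52036, which overlaps it, had 4.63% and 9.52%. The long non-coding gene 4930586N03Rik, which spans Zfp322a, had 4.38% (320 calls, interval 2.41 to 7.23) and 8.94% (235 calls, interval 5.62 to 13.3), a difference of -4.56 points. Of these 9 measured genes 0 were lower and 0 higher at shared CpGs by the rule given above. At all CpGs, 4930586N03Rik had 11.1% of 443 calls with AG-881 and 23.8% of 345 with DMSO, a decrease of more than 5 points. Each AG-881 pool was there at 20.4% or less and each DMSO pool at 21.2% or more. At shared CpGs the pools of the arms overlapped for this gene. AG-881 pools had 9.52%, 1.64%, 7.14% and 2.78%, and DMSO pools had 7.69%, 4%, 16.7% and 6.67%. The count of 0 lower genes thus holds for shared CpGs alone. At all CpGs 4930586N03Rik would be counted as lower, but there the arms are partly read at different CpGs.

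By group, over all CpGs, the 2 zinc finger genes (Zfp184 and Zfp322a) were at 1.46% with AG-881 and at 2.24% with DMSO. The 2 butyrophilin genes had 10.0% and 11.2%. The 13 long non-coding RNA genes, 10 of them with a position, had 10.4% and 18.8%. That is a difference of -8.42 points (interval -12.1 to -4.80). A large part of these calls came from the single gene 4930586N03Rik, whose values at all CpGs are given above. The group without this gene was not examined. At shared CpGs the long non-coding RNA genes had 4.29% and 6.82%, a difference of -2.53 points (interval -5.55 to 0.339). The 5 other protein-coding genes had 50.3% and 47.99%. The 79 vomeronasal receptor genes and pseudogenes could hardly be read. A single gene of them had positions, with 5 of 6 and 13 of 14 calls methylated at 2 CpGs.

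The 77 tRNA genes differed among themselves. Together they had 15.5% with AG-881 (782 calls) and 18.6% with DMSO (932 calls), and 26 of the 47 with positions had at least 20 calls over both arms. Of these 26, 7 had no methylated call, 5 were below 10%, 5 from 10% to 50%, and 9 at 50% or more. Their range was 0 to 86.4% and their median 17.1%. The isoleucine tRNA gene n-TIaat15 had 18 of 21 calls methylated and 20 of 23. The tyrosine tRNA genes n-TYgta4 and n-TYgta5 had 14 of 16 and 13 of 16 with AG-881, and 9 of 16 and 12 of 21 with DMSO. n-TYgta7, of the same anticodon, had 0 of 32 and 0 of 28. The serine tRNA gene n-TSgct5 had 0 of 36 and 0 of 88. For all 26 genes the interval of the arm difference included 0. Around tRNA genes the level over both arms was 12.4% inside, 34.9% at 500 to 1000 bp and 62.7% at 1000 to 2000 bp.

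**Figure D5:**
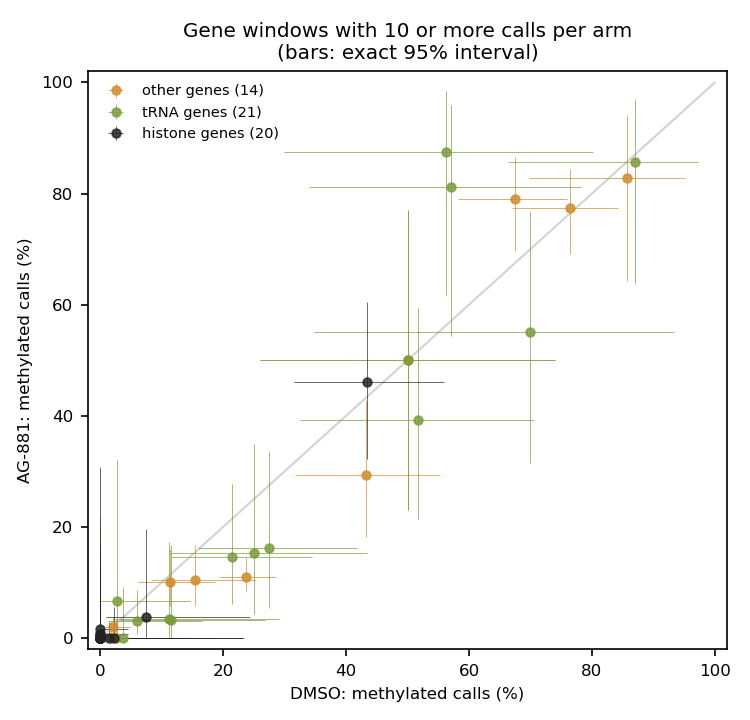
Methylated calls in percent with DMSO (x axis) and AG-881 (y axis) for each gene window with at least 10 calls in each arm, with exact 95% intervals; the line marks equal levels. The 20 histone genes (black) lie in the lower left corner except H2bc6, while 21 tRNA genes (green) and 14 other genes (orange) spread along the line.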

How the data were processed

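CpG methylation was measured by single-cell reduced representation bisulfite sequencing in 67 AG-881 and 74 DMSO cells. The transcriptomes were not analysed here. The deposited table gives a methylated fraction (0, 0.5 or 1) per cytosine position and cell, with positions on mm10 (per the submitters' processing notes). No aligner or caller is named in the sources, and read depth is unknown. The deposited fractions carry the arm and pool in their column names but no well.

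Adjacent positions were merged as strands of 1 CpG (50 in the interval), and ties at 0.5 (24, 0.308% of values) were left out. Calls were pooled over cells, which are not replicates. Intervals of differences combine both arms' Clopper-Pearson intervals and treat calls as independent, although neighbouring CpGs of 1 cell are not. Gene positions come from the RefSeq tables of GRCm38.p6, whose sequence is that of mm10. Promoter windows held 132 table positions, of which 128 fell at a CpG. Comparison genes over 3 kb were read 500 bp either side of each listed start. Since a pool holds cells of a single arm, a pool effect and an arm effect cannot be separated.

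Genes were named by this rule: in each histone class the highest and lowest DMSO levels among measured genes (at least 50 calls and 10 cells per arm), the 5 largest decreases and increases among those with at least 100 calls per arm, the linker and testis genes, and the 5 highest and lowest other genes. Further genes were named after their values were seen, as examples. No gene of the planned Slc17a list lies in the interval. Members and lists were chosen with earlier results of these data known. Shortening the long H2B annotations was chosen after seeing the data. Scripts used Python 3.11.15, numpy 2.4.6, scipy 1.17.1, pandas 2.3.3 and matplotlib 3.10.9, and were tested on simulated data.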

Additional observations from a re-analysis of the deposited data

How the results depend on the processing

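Settings changed were the distance from a gene, the cells required per CpG, the treatment of ties and strands, the weights, each pool left out in turn, and the extent of long histone annotations. The count of histone genes called lower or higher was 0 in each of the 17 settings that gave it, over 2 to 7 measured genes. The arm difference at histone genes, with whole annotated spans except where stated, lay between -1.37 and -0.0349 points. It was -0.0539 points with long annotations shortened, -1.16 without pool 3 and -0.0457 without pool 4. The difference at other genes was negative in all 19 settings (-5.29 to -1.69 points). It was -1.69 points with cells weighted equally. Its interval included 0 without pool 2 (-2.81), pool 6 (-3.80) or pool 8 (-3.74), and at CpGs with at least 10 cells of each arm (-3.98). Between the genes the difference ranged from -3.99 to 4.95 points and was negative in 4 of 19 settings. The excess of the level between the genes over histone genes in DMSO was 40.5 points within 250 bp, 63.7 within 1000 bp and 68.6 at CpGs with at least 10 cells of each arm. With 250 bp, 50 shared CpGs counted as between the genes in place of 34, and 85 in place of 96 as near histone genes. Leaving out single pools moved this excess to between 51.4 and 56.8 points. No paired analysis was possible because the columns name no well and no label links cells between the arms. Depth limits single genes: 5 of 51 histone genes reached the minimum at shared CpGs and 8 over all CpGs.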
